A study of Mus musculus with 5 samples.

Results

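The CD26 gate effect on gene expression in fat progenitors was compared between subcutaneous (SAT) and visceral (VAT) fat, gene by gene, to find genes for which it was present in 1 depot only, unequal or reversed. All 5 libraries of the series enter the comparison. They are poly(A) RNA-seq libraries of sorted adipose-derived stem cells of wild-type mice on chow diet, sorted from the fat of 30 mice aged 12 to 14 weeks, with cells positive for CD31 or CD45 gated out. How the mice were divided among the libraries is not stated. By library name there is 1 SAT CD26 library, 1 SAT CD142 library, 1 VAT CD26CD142 library and a pair of VAT CD142 libraries, numbered 1 and 2.

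The SAT labels conflict. The library named for CD142 is titled CD26+CD142-, and the library named for CD26 is titled CD26-CD142+. Library names were used here, so "the SAT CD26 library" below means the library named so. In VAT, titles and names give the same gates. The gates are also unequal between depots. If the names hold, the SAT comparison sets CD26+CD142- cells against CD26-CD142+ cells, whereas the VAT comparison sets CD26+CD142+ cells against CD26-CD142+ cells. The SAT CD26 library is thus the only one sorted as CD142-negative. Depot and the CD142 status of the CD26+ cells cannot be told apart in this design.

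CD26 is the cell-surface peptidase DPP4 and marks interstitial progenitors, which lie upstream of committed preadipocytes in fat. CD142 is tissue factor, the starter of blood coagulation, encoded by F3. Cells that carry it have been described as Aregs, progenitors that can hold back fat cell formation. Bone morphogenetic proteins (BMPs) and retinoic acid are secreted or diffusible signals that steer mesenchymal progenitors. Matrix Gla protein is a secreted protein that can bind BMPs.

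Levels are given as CPM, read counts brought to a common library total with TMM normalization. The gate effect is a difference in log2(CPM + 1), the CD26 side minus the CD142 side, and in VAT the CD142 side is the mean of the pair. The SAT effect minus the VAT effect is called the difference below. It was tested in a fit of all 4 groups by edgeR's quasi-likelihood test, with Benjamini-Hochberg adjustment over all tested genes. The fit has 1 residual degree of freedom per gene, from the VAT CD142 pair, and the other 3 libraries add none. The spread of a gene is therefore not its own pair's alone, since edgeR draws it towards a trend over all genes. Each of the other 3 libraries is assumed to vary like that pair. Nothing in the labels says that the pair came from separate mice, so the p-values measure the spread between these libraries, which may be technical.

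Total counts ran from 21706345 to 25357403 per library. Mitochondrially encoded genes took 2.83% of counts in the SAT CD142 library (95% exact Clopper-Pearson interval 2.82 to 2.84, counting error only) and 4.33% in VAT CD142 library 1 (4.32 to 4.34). They took 0.554% to 0.633% in the other 3, whose names all end in 2. The number in the name therefore follows the gate in SAT. The sort genes went with the library names: Dpp4 was at 1007 CPM in the SAT CD26 library and 6.58 CPM in the SAT CD142 library. In VAT it was at 417 CPM against 5.13 and 6.58 CPM.

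Of 15920 tested genes, 40 passed the test of the difference (0.251%), 6 with a positive difference (0.0377%) and 34 with a negative one (0.214%). Adjusted p ran from 3.4e-04 to 0.0391. All 40 are protein-coding. They include the CD142+ markers F3, Mgp and Clec11a, the retinaldehyde dehydrogenase genes Aldh1a2 and Aldh1a3, the ligand genes Bmp6 and Bmp7, the integrin gene Itgb7 and the simple keratin genes Krt7, Krt8 and Krt18. For 30 of the 40 the SAT CD26 library was the lowest of the 5, and for the 6 with a positive difference the SAT CD142 library was the lowest. All 40 kept their sign against each VAT CD142 library taken alone, which the choice of genes partly fixes.

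By the size of the effects, 12 of the 40 had an effect in SAT only (at least 1 in SAT and under 0.5 in VAT), 10 were reversed (at least 1 each way), 10 had the same direction with unequal size, 5 lay between these cut-offs and 3 were under 10 CPM in every library. With TMM scaling and the filter on low counts, 0 genes with an effect in VAT only passed in edgeR; 7 did with upper-quartile scaling, 11 with no filter, 1 with a 5 CPM filter and 2 without mitochondrially encoded genes. Across all tested genes the median effect was -0.01 in SAT and -0.01 in VAT, and the median difference was 0.01. Within SAT alone 605 genes passed (3.80%) and within VAT alone 254 did (1.60%). Of the 40, 36 also passed within SAT and 11 within VAT, counts that the choice of genes partly fixes.

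**Figure D1:**
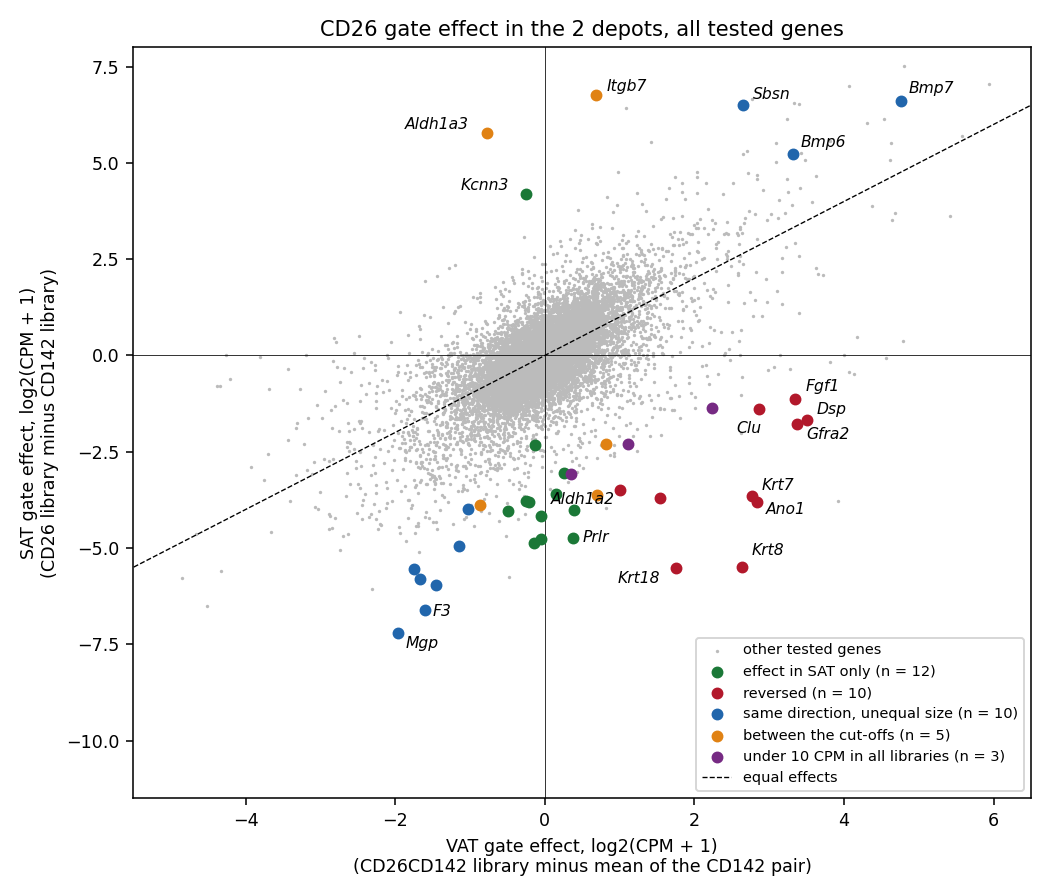
Each point is 1 of 15920 tested genes, with the VAT gate effect on the x axis and the SAT gate effect on the y axis, both as differences in log2(CPM + 1). Coloured points are the 40 genes that passed the test of the difference, by class; the reversed genes lie at the lower right, with negative SAT and positive VAT effects.

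The call depends on the test. DESeq2 called 85 genes, 39 of the 40 among them (not Kcnk2). Limma-voom called 10 genes, of which 9 were among the 40, with Krt7, Krt8, Ano1, Gfra2, Clu, Mgp, F3 and Aldh1a3 among them. With upper-quartile scaling 136 genes passed, and with no filter on low counts 181 did, all 40 included both times. With the SAT gates taken by title, 1053 genes passed and 35 of the 40 changed sign.

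F3 itself was lower on the CD26 side in both depots, by unequal amounts. F3 (ENSMUSG00000028128, mm10 chromosome 3, 121723537 to 121735048, plus strand) was at 5.32 CPM in the SAT CD26 library and at 618 CPM in the SAT CD142 library. In VAT it was at 99.1 CPM in the CD26CD142 library and at 379 and 241 CPM in the CD142 pair. The SAT effect was -6.61 and the VAT effect -1.60, with -1.92 and -1.28 against the separate CD142 libraries. The fitted log2 difference was -5.21 (SE 0.83, adjusted p = 0.0109). The VAT effect alone did not pass (adjusted p = 0.246). Since CD142 was a sort marker, and was kept in the VAT CD26CD142 gate and excluded from the SAT CD26 gate, the F3 difference cannot be told apart from the sort itself.

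The 250 bases before the F3 start are shown because F3 is both the sort gene and a passing gene. They are chr3:121723287-121723536 on the plus strand (GRCm38.p6, RefSeq), 5′ to 3′, with capitals for GC boxes (GGGCGG) and AP-1 motifs (TGANTCA) found on either strand.
F3: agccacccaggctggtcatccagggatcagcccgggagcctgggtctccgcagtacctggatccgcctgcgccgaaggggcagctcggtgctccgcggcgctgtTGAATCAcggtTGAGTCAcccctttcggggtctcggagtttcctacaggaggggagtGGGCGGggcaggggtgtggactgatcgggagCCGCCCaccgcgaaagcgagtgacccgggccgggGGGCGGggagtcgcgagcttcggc
The window holds 3 GC boxes and 2 AP-1 motifs. Of 32851 promoter windows of this length, 32.7% hold a GC box and 6.75% an AP-1 motif.

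Mgp, which encodes matrix Gla protein, an inhibitor of calcification, was also lowest in the SAT CD26 library. Mgp (ENSMUSG00000030218, chromosome 6, 136872435 to 136875823) was at 3.70 CPM in the SAT CD26 library and at 688 CPM in the SAT CD142 library, a 186-fold gap (counting interval 150 to 234). In VAT it was at 183 CPM in the CD26CD142 library against 820 and 624 CPM. The SAT CD26 library stood alone, and the VAT CD26CD142 library lay below its pair. The SAT effect was -7.20, the VAT effect -1.96, and the fitted difference -5.56 (SE 0.84, adjusted p = 0.00773).

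Clec11a, which encodes a secreted growth factor for bone-forming progenitors, was at 7.89 CPM in the SAT CD26 library and 492 CPM in the SAT CD142 library. It was at 11.5 CPM in the VAT CD26CD142 library and at 48.6 and 31.1 CPM in the VAT CD142 pair. Both CD26-side libraries were thus low, and the SAT CD142 library was far above all VAT libraries. The fitted difference was -4.18 (SE 0.77, adjusted p = 0.0325).

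Of the 12 genes on the CD142+ (Areg) list, these 3 passed the test of the difference, all negative (0.214% of tested genes passed so). In 10 of 12 the difference was negative. The list's median effect was -3.79 in SAT and -1.56 in VAT, and its median difference was -3.15, against 0.01 over all tested genes. Within SAT 9 of 12 fell (2.46% of tested genes were called lower there), and within VAT 1 did (0.697%). Members that did not pass include Fmo2, a flavin monooxygenase gene (difference -3.67, adjusted p = 0.0885), the homeobox gene Meox2 (-3.51, adjusted p = 0.081) and Cpe, encoding carboxypeptidase E (-3.42, adjusted p = 0.067). Igf1, the growth factor gene, had a difference of 1.24 and Adamts15, a protease gene, one of 1.30; neither passed. The list holds the sort gene itself.

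Of 24 tested coagulation and plasminogen genes, only F3 passed (0.251% of all tested genes did). F2r, the thrombin receptor gene, was at 1.35 CPM in the SAT CD26 library, 16.9 CPM in the SAT CD142 library, 25.2 CPM in the VAT CD26CD142 library and 32.3 and 45.8 CPM in the VAT CD142 pair (difference -2.34, adjusted p = 0.175). Thbd, encoding the anticoagulant receptor thrombomodulin, had a difference of 2.10 in the other direction (adjusted p = 0.839). The list's median difference was -0.69.

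The 2 retinaldehyde dehydrogenase genes that passed went in opposite directions in SAT and stayed high throughout VAT. Both enzymes make retinoic acid from retinaldehyde. Aldh1a3 (ENSMUSG00000015134, chromosome 7, 66390890 to 66427517) was at 623 CPM in the SAT CD26 library and 10.4 CPM in the SAT CD142 library. In VAT it was at 361 CPM in the CD26CD142 library and 488 and 786 CPM in the CD142 pair. The SAT CD142 library was the only low one. The SAT effect was 5.78, or 60.0-fold (counting interval 52.8 to 68.5), and the VAT effect -0.78. The fitted difference was 6.73 (SE 0.93, adjusted p = 0.00569).

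Aldh1a2 (ENSMUSG00000013584, chromosome 9, 71215789 to 71296243) was at 0.135 CPM (3 counts) in the SAT CD26 library and 19.4 CPM in the SAT CD142 library. It was at 30.7 CPM in the VAT CD26CD142 library and at 29.3 and 34.7 CPM in the CD142 pair. Here the SAT CD26 library was the only low one, the mirror image of Aldh1a3. In SAT the gap was 144-fold, with a counting interval of 48.8 to 699. The VAT effect was -0.05 and the fitted difference -7.05 (SE 0.92, adjusted p = 0.00426).

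The promoter of Aldh1a2 is printed beside that of F3 for its contrasting pattern in VAT. It is chr9:71215539-71215788, plus strand (GRCm38.p6, RefSeq), and none of the motifs searched is in it, so no base is in capitals.
Aldh1a2: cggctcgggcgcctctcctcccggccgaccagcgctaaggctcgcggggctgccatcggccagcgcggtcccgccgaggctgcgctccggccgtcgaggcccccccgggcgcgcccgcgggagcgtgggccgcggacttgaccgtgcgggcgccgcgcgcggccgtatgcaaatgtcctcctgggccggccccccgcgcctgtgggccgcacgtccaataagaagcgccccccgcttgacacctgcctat
Its GC content is 77.6%, against 70.0% for F3.

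Among 21 tested retinoid genes, 1 passed in each direction (0.0377% of all tested genes passed as positive and 0.214% as negative). The median difference was -0.05. Aldh1a1, the third gene of this enzyme group, was at 203 to 378 CPM in all 5 libraries (difference 0.44, adjusted p = 1.00). Dhrs9, a retinol dehydrogenase gene, was at 47.8 CPM in the SAT CD26 library, 0.0433 CPM in the SAT CD142 library, 1.94 CPM in the VAT CD26CD142 library and 0 and 0.215 CPM in the VAT CD142 pair. Its difference of 4.13 did not pass (adjusted p = 0.387). Cyp26b1, encoding a retinoic acid-degrading enzyme, was at 82.8 CPM in the SAT CD142 library, 15.9 CPM in the SAT CD26 library and 1.05 to 3.70 CPM in VAT (adjusted p = 1.00).

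Itgb7, which encodes the beta-7 integrin chain best known for lymphocyte homing to the gut, was nearly confined to 1 library. Itgb7 (ENSMUSG00000001281, chromosome 15, 102215995 to 102231944) was at 131 CPM in the SAT CD26 library and 0.216 CPM (5 counts) in the SAT CD142 library. In VAT it was at 1.48 CPM in the CD26CD142 library and at 0.275 and 0.860 CPM in the CD142 pair. All 4 other libraries were under 2 CPM. The SAT effect was 6.76 and the VAT effect 0.69, with a fitted difference of 7.84 (SE 1.11, adjusted p = 0.00773). Lymphocyte markers summed to 1.35 CPM in the SAT CD26 library, with 8 of 15 at 0 there, and to 0.825 to 7.96 CPM in the others. Of the genes for its usual partner chains, Itga4 was at 0.271 CPM and Itgae at 0.180 CPM in that library.

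The Itgb7 promoter is shown as that of the gene with the narrowest pattern. It is chr15:102231936-102232185 on the minus strand (GRCm38.p6, RefSeq), starts 9 bases away from the deposited gene start, and holds none of the motifs searched.
Itgb7: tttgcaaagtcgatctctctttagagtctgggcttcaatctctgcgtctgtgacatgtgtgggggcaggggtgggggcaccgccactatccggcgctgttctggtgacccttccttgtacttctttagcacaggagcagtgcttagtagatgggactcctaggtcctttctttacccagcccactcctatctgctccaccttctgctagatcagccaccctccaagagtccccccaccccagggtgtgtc

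Among the 21 tested integrin genes no other passed (0.251% of all tested genes did), and the median difference was -0.02. Itga11, a collagen receptor gene, had effects of 3.31 in SAT and 2.02 in VAT, and Itgb3 of 2.20 and 2.29. Itgb8 was at 0 CPM in the SAT CD26 library, 1.13 CPM in the SAT CD142 library and 5.78 to 19.2 CPM in VAT (adjusted p of the difference 0.288).

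The ligand genes Bmp6 and Bmp7 were higher on the CD26 side in both depots, with a larger ratio in SAT, where the SAT CD142 library had 0 counts of either. Bmp6 (ENSMUSG00000039004, chromosome 13, 38345107 to 38500302) was at 36.3 CPM in the SAT CD26 library, at least 279-fold above the SAT CD142 library with 3 counts as its floor. It was at 141.6 CPM in the VAT CD26CD142 library, 10.2-fold above the mean of 9.95 and 17.8 CPM in the CD142 pair. The VAT CD26CD142 library was the highest of the 5. The difference in log2(CPM + 1) was 1.91 (adjusted p = 0.0214). Its size depends on the pseudocount: it was 0.0572 with 5 CPM and 2.84 with 0.5 CPM. The fitted difference rests on the prior count where a library is at 0 and is not given.

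Bmp7 was at 96.5 CPM in the SAT CD26 library, at least 744-fold above the SAT CD142 library. It was at 68.1 CPM in the VAT CD26CD142 library and at 1.28 and 1.85 CPM in the CD142 pair, a 43.5-fold gap. The difference was 1.85 (adjusted p = 0.0321), or 0.87 with a pseudocount of 5 CPM. On this scale Bmp6 and Bmp7 had the smallest differences of the 40.

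Of 49 tested BMP and TGF-beta genes, 2 had a positive passing difference (Bmp6, Bmp7) and 1 a negative one (Mgp). Over all tested genes the shares were 0.0377% and 0.214%. The list's median difference was 0.07. Bmp2 was higher on the CD26 side in both depots, by 3.47 and 2.44. Bmp3 was at 26.1 CPM in the SAT CD26 library, 0.563 CPM in the SAT CD142 library, 0.783 CPM in the VAT CD26CD142 library and 0 CPM in the VAT CD142 pair. Its difference of 3.28 had an adjusted p of 1.00, and its fitted difference was of the other sign (-1.65), with both VAT CD142 libraries at 0. Of the receptor genes, Bmpr1a had effects of -0.05 and 0.11, and Bmpr2 of 0.50 and 0.41; neither passed.

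**Figure D2:**
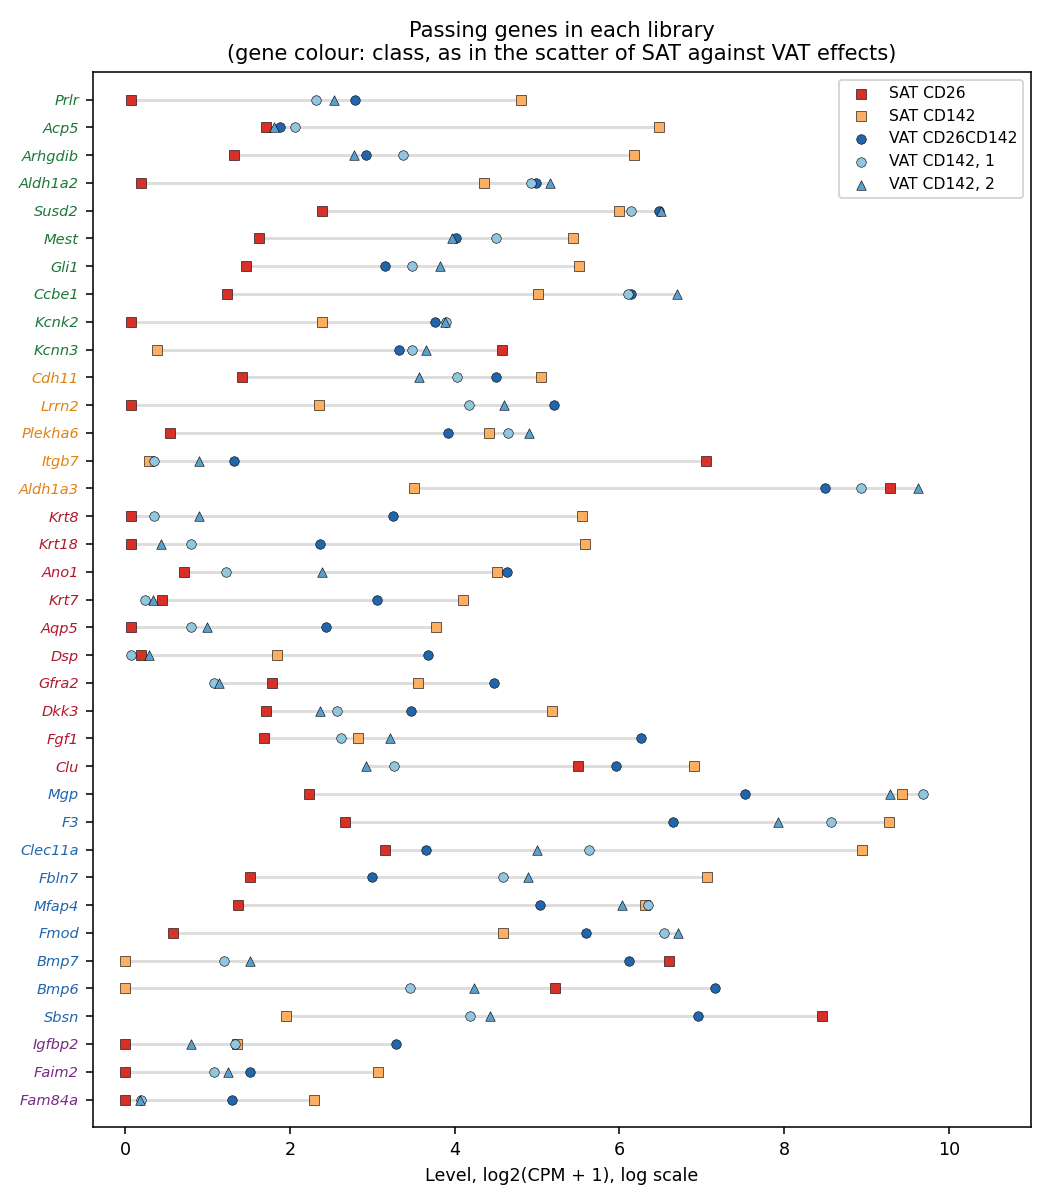
Levels of 37 of the passing genes in each of the 5 libraries, as log2(CPM + 1) on the x axis; squares are SAT and other symbols VAT, and each grey bar spans the 5 values. In 27 of the 37 the SAT CD26 square is the leftmost symbol.

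In the 11 passing genes that were lower in SAT only, the VAT effect against the mean of the CD142 pair is under 0.5 by the class cut-off. Against a single library of the pair it could be larger, at -0.67 for Gli1 and -0.55 for Ccbe1 against library 2. Prlr, the prolactin receptor gene, had the largest difference of the 11. It was at 0.0451 CPM (1 count) in the SAT CD26 library, 26.8 CPM in the SAT CD142 library, 5.94 CPM in the VAT CD26CD142 library and 3.99 and 4.77 CPM in the VAT CD142 pair. From 1 count the SAT ratio is 595 (counting interval 106 to 23530). The SAT effect was -4.73 and the VAT effect 0.37 (adjusted p = 0.00272).

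Acp5, encoding tartrate-resistant acid phosphatase, was at 2.26 CPM in the SAT CD26 library and 88.4 CPM in the SAT CD142 library, while the 3 VAT libraries lay between 2.49 and 3.16 CPM. Arhgdib, which encodes a GTPase regulator much used by blood cells, had the same shape, at 1.49 CPM, 71.2 CPM and 5.85 to 9.31 CPM. For these 2 genes it was the SAT CD142 library that stood apart from the VAT libraries. Fitted differences were -5.21 for Acp5 (SE 0.79) and -5.37 for Arhgdib (SE 0.82), both with adjusted p = 0.00773. Macrophage and myeloid markers summed to 71.3 CPM in the SAT CD142 library and to 40.0 to 57.1 CPM in the other 4, and their part in these 2 genes was not tested.

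Susd2, a membrane protein gene, was at 4.24 CPM in the SAT CD26 library and at 62.6 to 90.0 CPM in the other 4 (adjusted p = 0.0338). Ccbe1, a gene needed for lymphatic growth, was at 1.35 CPM there and at 31.3 to 103 CPM elsewhere (adjusted p = 0.0339). In both genes only the SAT CD26 library was low.

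Gli1, a transcriptional target and effector of Hedgehog signalling, was at 1.76 CPM in the SAT CD26 library and 44.7 CPM in the SAT CD142 library. It was at 7.87 CPM in the VAT CD26CD142 library and at 10.1 and 13.1 CPM in the VAT CD142 pair. Its VAT effect of -0.50 lies just inside the cut-off, and its adjusted p of 0.0391 was the highest of the 40. Mest, an imprinted gene tied to fat expansion, was at 2.07 CPM, 42.2 CPM, 15.2 CPM, 21.6 CPM and 14.6 CPM in the same order (adjusted p = 0.0377). In both genes the SAT libraries bracketed the VAT libraries.

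Kcnk2, a potassium channel gene, was at 0.0451 CPM (1 count) in the SAT CD26 library, at 4.24 CPM in the SAT CD142 library and at 12.5 to 13.9 CPM in VAT (adjusted p = 0.0339). Kcnn3, a calcium-activated potassium channel gene, was the 1 passing gene higher in SAT only. Kcnn3 was at 22.8 CPM in the SAT CD26 library, 0.303 CPM (7 counts) in the SAT CD142 library and 8.99 to 11.6 CPM in VAT. Its SAT effect was 4.19 and its VAT effect -0.25 (adjusted p = 0.00773).

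Besides F3, Mgp, Clec11a, Bmp6 and Bmp7, 5 passing genes had the same direction in both depots and a larger effect in SAT, among them Fmod, Mfap4, Fbln7 and Sbsn. Fmod and Mfap4 encode a collagen-binding proteoglycan and a microfibril protein, and Fbln7 encodes a fibulin. Sbsn encodes suprabasin, a secreted protein first described in skin. Sbsn was higher on the CD26 side, at 352 CPM against 2.86 CPM in SAT and 123 CPM against 17.2 and 20.5 CPM in VAT (adjusted p = 0.0324).

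Mfap4 had effects of -4.95 and -1.15 (adjusted p = 0.0219) and Fbln7 of -5.56 and -1.74 (adjusted p = 0.0295). Fmod was at 0.496 CPM in the SAT CD26 library and 22.9 CPM in the SAT CD142 library, and at 47.5 CPM against 91.96 and 104 CPM in VAT (adjusted p = 0.0298). None of these 3 passed within VAT alone. Fmod and Mfap4 were the only 2 of 59 tested matrix genes with a passing difference (0.251% of all tested genes had one). The median difference of that list was -0.25. Bgn, the biglycan gene, missed the threshold with effects of -4.69 and -0.52 (adjusted p = 0.0623).

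Of the 5 passing genes between the cut-offs, Aldh1a3 and Itgb7 are described above. Cdh11, encoding the mesenchymal cadherin-11, was at 1.67 CPM in the SAT CD26 library, 32.2 CPM in the SAT CD142 library, 21.6 CPM in the VAT CD26CD142 library and 15.3 and 10.8 CPM in the pair. Its effects were -3.63 and 0.70 (adjusted p = 0.012). Lrrn2, a leucine-rich repeat membrane protein gene, was at 0.0451 CPM (1 count) in the SAT CD26 library and 4.11 CPM in the SAT CD142 library, under its 17.1 to 35.9 CPM in VAT (adjusted p = 0.00773). Plekha6 had effects of -3.88 and -0.86 (adjusted p = 0.0293).

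**Figure D3:**
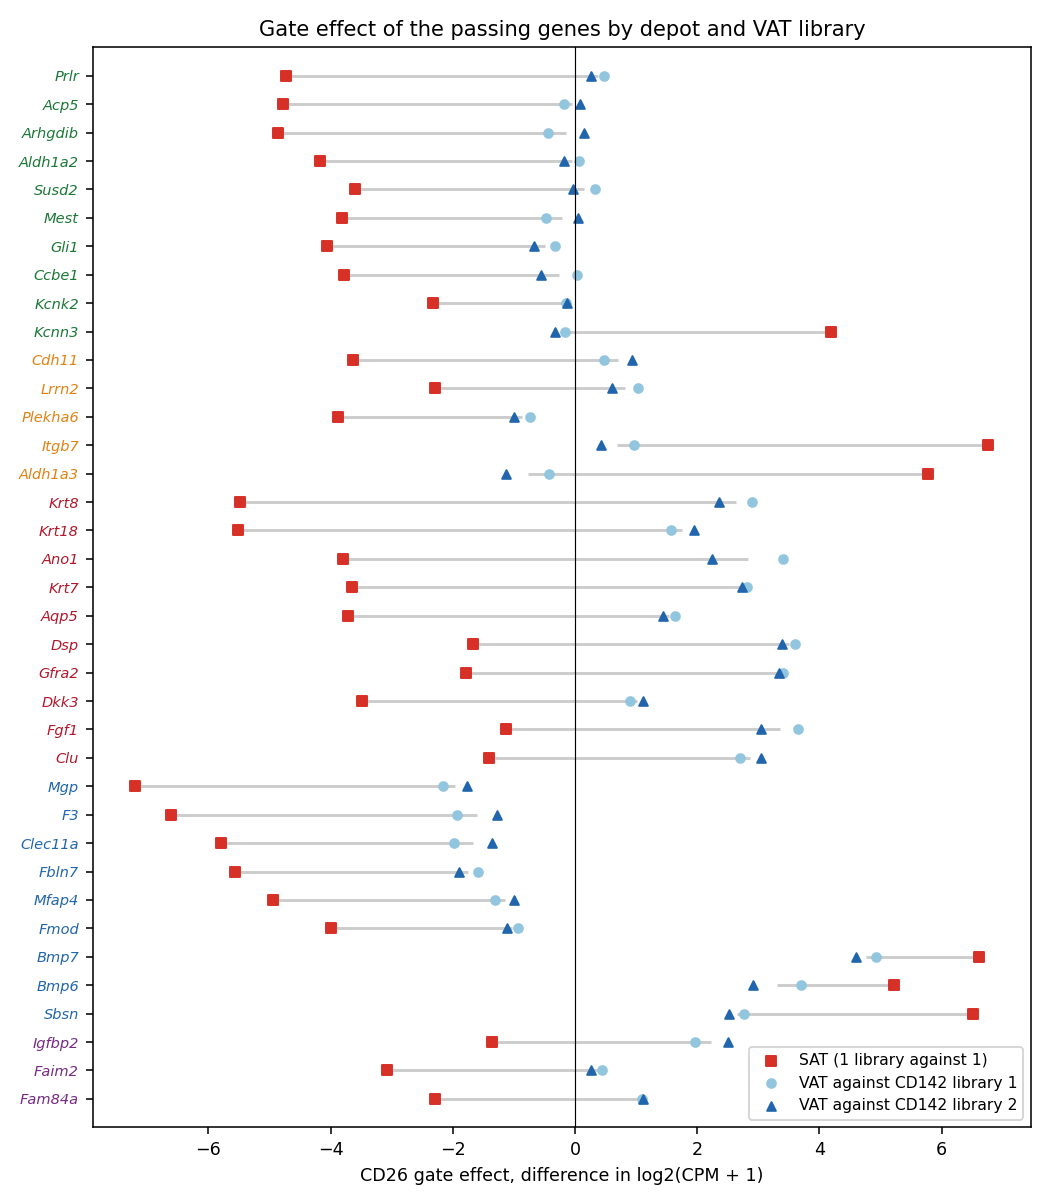
Gate effect of 37 of the passing genes as differences in log2(CPM + 1): red squares are SAT (1 library against 1), and blue symbols are the VAT CD26CD142 library against each VAT CD142 library. Both blue symbols lie on the same side of the red square for all 37 genes, and the gene colours are the classes of the scatter of SAT against VAT effects.

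The 10 reversed genes among the 40 were lower on the CD26 side in SAT and higher on the CD26 side in VAT. Of them, 4 (Krt7, Krt8, Krt18 and Ano1) passed within each depot alone. The keratin genes Krt8 and Krt18, which encode partner filament proteins of simple epithelia and mesothelium, had the lowest adjusted p of the 40. Krt8 (ENSMUSG00000049382, chromosome 15, 101996698 to 102004482) was at 0.0451 CPM (1 count) in the SAT CD26 library and 45.8 CPM in the SAT CD142 library. In VAT it was at 8.53 CPM in the CD26CD142 library and 0.275 and 0.860 CPM in the CD142 pair. High and low libraries thus change places between depots. The effects were -5.48 and 2.63, and the fitted difference -13.71 (SE 1.32, adjusted p = 3.4e-04).

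Krt18 was at 0.0451 CPM (1 count), 46.7 CPM, 4.16 CPM, 0.733 CPM and 0.344 CPM in the same order (adjusted p = 3.4e-04). Krt7 was at 0.361 CPM and 16.1 CPM in the SAT CD26 and CD142 libraries, and at 7.34 CPM against 0.183 and 0.258 CPM in VAT (effects -3.65 and 2.77, adjusted p = 0.00184). Aqp5, a water channel gene of glands, had effects of -3.71 and 1.54 (adjusted p = 0.00569), the VAT effect alone not passing (adjusted p = 0.145). Dsp, encoding the desmosome protein desmoplakin, was at 0.135 and 2.60 CPM in SAT and at 11.7 CPM against 0.0458 and 0.215 CPM in VAT (adjusted p = 0.00773). Its SAT effect alone did not pass (adjusted p = 0.062). Keratin genes have pseudogenes, so some reads of Krt8 and Krt18 could be lost to them in every library. This was not tested.

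Marker lists of other cell types moved with these genes, in part because the lists hold some of them. Krt8 and Krt18 are on both lists below, and Krt7 is on the mesothelial list. Mammary and skin epithelial markers summed to 282 CPM in the SAT CD142 library, 13.4 CPM in the SAT CD26 library, 43.8 CPM in the VAT CD26CD142 library and 2.71 and 4.30 CPM in the VAT CD142 pair. Of the 282 CPM, Krt8 gave 45.8 CPM and Krt18 46.7 CPM. Of the 19 markers, 15 were highest in the SAT CD142 library. Epcam was there at 25.2 CPM, Ltf at 23.8 CPM and Csn3 at 17.0 CPM, and in the other 4 libraries Epcam was at most 0.0860 CPM and Ltf and Csn3 were at 0. Of the list, 3 genes were at 0 in the SAT CD142 library and 7 to 9 in each other library.

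Mesothelial markers summed to 766 CPM in the VAT CD26CD142 library, 353 and 378 CPM in the VAT CD142 pair, and 317 and 199 CPM in the SAT CD142 and CD26 libraries. Of the 18, 9 were highest in the VAT CD26CD142 library, among them Upk3b at 96.2 CPM and Msln at 38.5 CPM. Msln, the mesothelin gene, was at 0 in both SAT libraries and at 0.779 and 2.41 CPM in the VAT CD142 pair. The part of epithelial or mesothelial RNA in the reversed genes was not tested. In bulk samples, fewer cells of a type and less RNA per cell cannot be told apart.

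**Figure D4:**
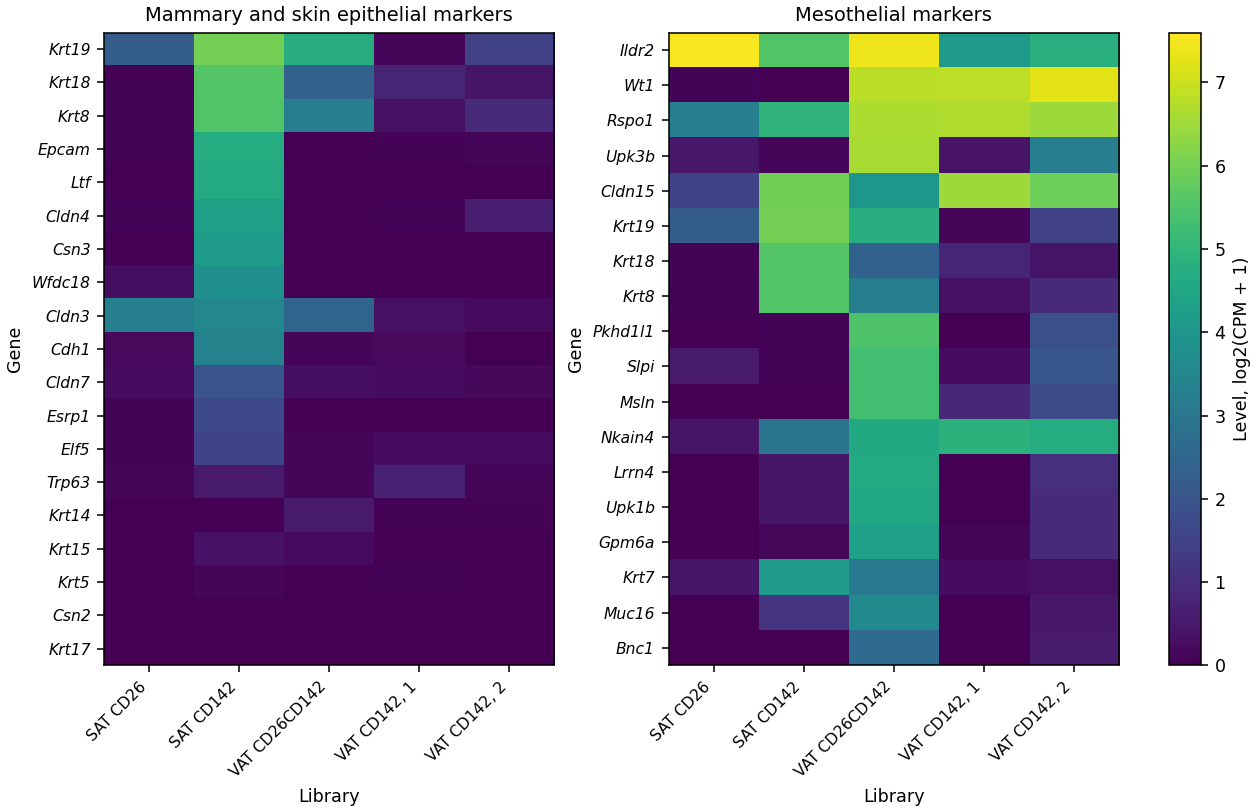
Levels of mammary and skin epithelial markers (left) and mesothelial markers (right) in the 5 libraries, as log2(CPM + 1) by colour. Epcam, Ltf and Csn3 are high in the SAT CD142 column only, and Msln and Upk3b are highest in the VAT CD26CD142 column.

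The other reversed genes are not keratins or junction genes. Ano1, a calcium-activated chloride channel gene, was at 0.631 and 21.8 CPM in the SAT CD26 and CD142 libraries and at 23.8 CPM against 1.33 and 4.21 CPM in VAT (adjusted p = 0.00804). Fgf1, encoding acidic fibroblast growth factor, was at 76.0 CPM in the VAT CD26CD142 library and 5.13 and 8.30 CPM in the pair. In SAT it was at 2.21 CPM in the CD26 library and 6.06 CPM in the CD142 library, a gap that did not pass by itself (adjusted p = 0.293). The Fgf1 difference of -4.49 (adjusted p = 0.0128) thus rests mainly on VAT.

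Gfra2, the neurturin receptor gene, was at 2.44 and 10.8 CPM in SAT and at 21.3 CPM against 1.10 and 1.20 CPM in VAT (adjusted p = 0.00773). Its SAT effect alone did not pass (adjusted p = 0.13). Clu, the clusterin gene, was at 44.2 and 118 CPM in SAT and at 61.2 CPM against 8.62 and 6.58 CPM in VAT (adjusted p = 0.0195), and its SAT effect did not pass either (adjusted p = 0.248). For Clu the VAT CD142 pair held the 2 lowest values. Dkk3, a member of the Dickkopf family, was at 2.26 and 35.4 CPM in SAT and at 10.1 CPM against 4.95 and 4.13 CPM in VAT (adjusted p = 0.0128). Its VAT effect of 1.01 is barely past the cut-off and did not pass by itself (adjusted p = 0.52). Dkk3 was the only one of 37 tested Wnt genes whose difference passed (0.251% of all tested genes did).

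The 3 passing genes under 10 CPM in every library had 0 counts in the SAT CD26 library. Igfbp2, encoding an insulin-like growth factor binding protein, was at 1.56 CPM in the SAT CD142 library and at 8.78 CPM against 1.51 and 0.731 CPM in VAT (adjusted p = 0.0285). Faim2 was at 7.40 CPM in the SAT CD142 library and at 1.10 to 1.85 CPM in VAT (adjusted p = 0.0273). Fam84a was at 3.89 CPM in the SAT CD142 library and at 1.44 CPM against 0.138 and 0.129 CPM in VAT (adjusted p = 0.0339). At this depth, ratios within SAT are at least 11.5-fold for Igfbp2, 54.7-fold for Faim2 and 28.8-fold for Fam84a, with 3 counts as the floor.

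Effects in VAT only were counted by size alone. By size, 116 genes had them (0.729% of those tested). Of these, 26 had an unadjusted p under 0.05 for the difference, which the size cut-offs of this class partly fix. Over all tested genes that did not pass, 672 of 15880 had such a p. DESeq2 called 4 genes of this kind and limma-voom 0. The largest on the higher side were the mesothelial genes Pkhd1l1, Lrrn4 and Upk1b. In edgeR with no filter Lrrn4 and Upk1b passed (adjusted p = 4.12e-06 and 5.28e-06), and Pkhd1l1 did not. In limma-voom neither Lrrn4 nor Upk1b passed (adjusted p = 0.392 for each). Pkhd1l1 was at 43.8 CPM in the VAT CD26CD142 library, 0 and 2.62 CPM in the CD142 pair, and 0 and 0.0433 CPM in the SAT CD26 and CD142 libraries (adjusted p = 1.00). The largest on the lower side were Mmd2, Megf10 and Tmem114. Megf10, an engulfment receptor gene, was at 0.495 CPM in the VAT CD26CD142 library, 19.8 and 20.0 CPM in the pair, and 0.0902 and 0.130 CPM in SAT (adjusted p = 0.523).

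The opposite reversal, higher on the CD26 side in SAT and lower in VAT, was seen by size in 11 genes, and none of them is among the 40. Nrcam, a neuronal adhesion gene, was nearest, at 35.9 CPM against 6.66 CPM in SAT and 9.40 CPM against 24.8 and 23.8 CPM in VAT (difference 3.55, adjusted p = 0.0623). Il31ra, encoding a cytokine receptor chain, had effects of 1.92 and -1.60 (adjusted p = 0.0885). Fgl2 had effects of 2.35 and -1.19 (adjusted p = 0.363). DESeq2 called all 3, with adjusted p of 0.00656 for Nrcam, 0.0164 for Il31ra and 0.0251 for Fgl2. They also passed in edgeR with no filter, with adjusted p of 0.00148, 4.6e-04 and 0.00451. Nrcam and Il31ra passed with upper-quartile scaling (0.00816 and 0.0062) and with a 5 CPM filter (0.0258 and 0.0348). In limma-voom none of the 3 passed (0.111 to 0.635). In all, 34 genes were reversed by size (0.214% of those tested). The 24 that did not pass each had an unadjusted p under 0.05, which the size cut-offs of this class partly fix. Over all tested genes that did not pass, 672 of 15880 had such a p.

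By size, 686 genes (4.31% of those tested) had effects in SAT only. Effects of the same direction in both depots were more frequent, with 810 genes (5.09%). Of the 686, 314 were higher and 372 lower on the CD26 side. Only 12 of the 686 passed, and 122 of the other 674 had an unadjusted p under 0.05, which the size cut-offs of this class partly fix. Over all tested genes that did not pass, 672 of 15880 had such a p. Calcrl, an adrenomedullin receptor gene, was the next on the higher side, at 93.5 CPM against 5.84 CPM in SAT and 24.9 CPM against 16.3 and 20.0 CPM in VAT (adjusted p = 0.0885). The SAT-only count leans on the VAT CD142 pair: it was 1137 without VAT CD142 library 1 and 313 without library 2. Around the threshold, Mest (adjusted p = 0.0377) and Gli1 were the last to pass, and Eya2 (adjusted p = 0.0523), Chst1 (0.0586), Nrcam and Sfrp4 (both 0.0623) the first that did not. Sfrp4, a secreted Wnt inhibitor gene, had effects of -0.35 in SAT and 3.28 in VAT.

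CD26+ interstitial markers had positive median effects in both depots. Of 19 tested, 14 rose within SAT (1.34% of tested genes were called higher there) and 14 within VAT (0.898%). Only Bmp7 passed the test of the difference (0.251% of all tested genes did). The median effect of the list was 3.68 in SAT and 2.73 in VAT, and the median difference 0.46. The list holds Dpp4, the gene of the sort marker CD26 itself, whose rise cannot be told apart from the sort. Dpp4 had effects of 7.06 and 5.94 (adjusted p of the difference 1.00). Pi16, a secreted marker of this population, was at 6594 CPM against 64.1 CPM in SAT and 2083 CPM against 333 and 277 CPM in VAT (difference 3.89, adjusted p = 0.106).

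Committed preadipocyte markers fell within SAT for 13 of 17 genes (2.46% of tested genes were called lower) and within VAT for 6 (0.697%), and none passed the test of the difference (median difference -1.20). Mature adipocyte and lipid genes had a median difference of 0.01 over 17 genes, interferon response genes of 0.13 over 22 and HOX genes of -0.18 over 25. In each of these lists 0 passed. Cell cycle genes were lower in difference for 16 of 20 (median -0.42), and none passed. Of all tested genes 0.251% passed, so lists this short would mostly hold 0 passing genes, the committed preadipocyte list included. Mammary and skin epithelial markers had a median difference of -7.27 over the 5 of 19 that were tested, all negative, with 2 passing (Krt8, Krt18). That median is the difference of Krt18 itself, so it adds nothing separate from the passing genes. Mesothelial markers had a median difference of -4.21 over 18, with 3 passing (Krt7, Krt8, Krt18). Of all tested genes, 0.214% passed with a negative difference. Mitochondrially encoded genes had a median difference of -0.94 over 12 with 0 passing, beside the unequal mitochondrial shares of the libraries.

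**Figure D5:**
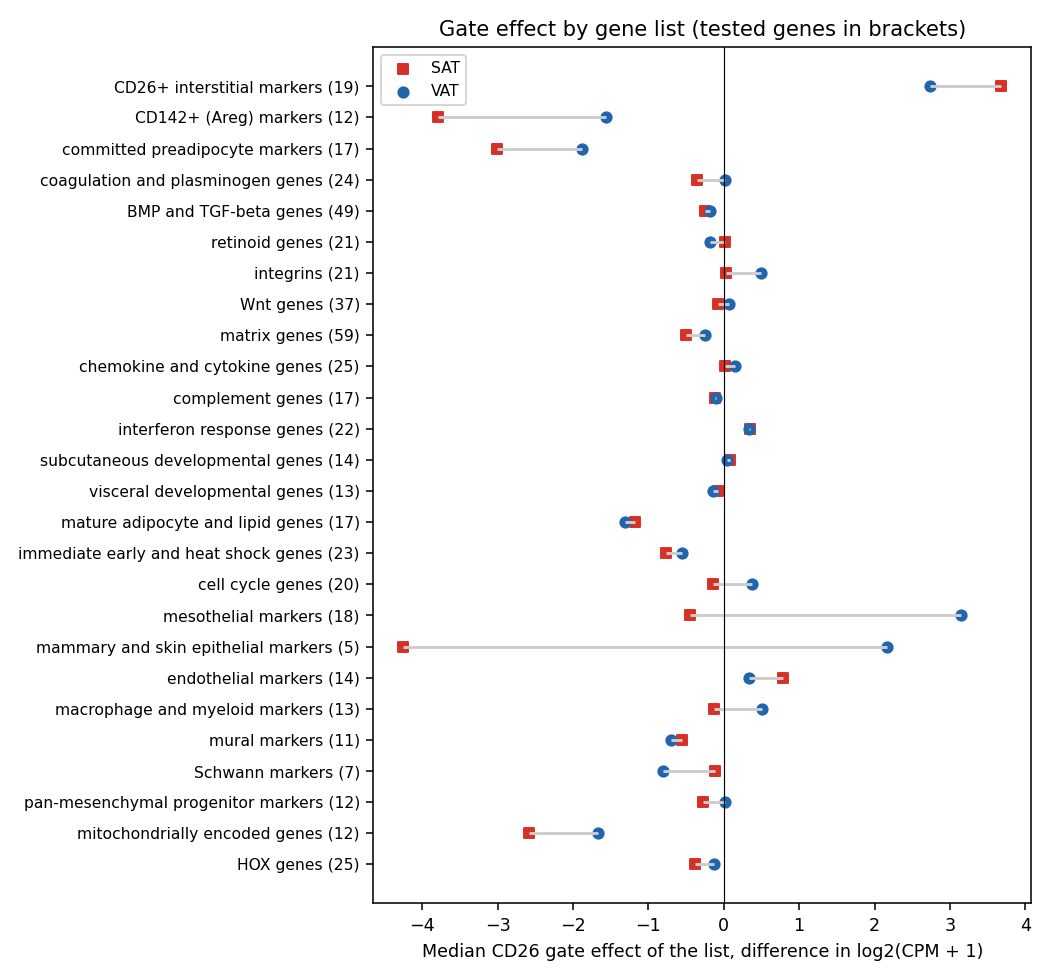
Median gate effect of each gene list in SAT (red squares) and VAT (blue circles), as a difference in log2(CPM + 1), for lists with at least 5 tested genes. Mesothelial and epithelial markers, lists that hold passing keratin genes, lie on opposite sides of 0 in the 2 depots. Areg markers are further below 0 in SAT.

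By position, 7 of the 40 passing genes lie on chromosome 15 (17.5%, against 4.00% of tested genes) and 6 on chromosome 1 (15.0% against 5.97%). There were 5 pairs within 200 kb of each other. Krt8 and Krt18 are 23.7 kb apart, and Itgb7 lies 184 kb beyond Krt18 with the opposite difference. Mgp and Arhgdib are 47.8 kb apart on chromosome 6, and Faim2 and Aqp5 62.6 kb apart on chromosome 15. Dsp and Bmp6, again with opposite differences, are 146.5 kb apart on chromosome 13.

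RefSeq promoter windows were matched for 23 of the 40 genes. A GC box was in 10 of the 23, an AP-1 motif in 2 (F3 and Sbsn) and a TATA box (TATAAA) in 1 (Arhgdib), against 32.7%, 6.75% and 12.4% of all 32851 windows. Neither the GLI motif TGGGTGGTC nor the retinoid direct repeat was in any of the 23, and they are in 0.225% and 0.00913% of all windows. Of the 40 genes, 22 overlap another gene of the table, and for 7 (Fgf1, Mfap4, Mest, Kcnk2 and Bmp6 among them) an overlapping gene has over 10% of their counts. The strand setting of the counting was not stated, so their reads could be shared.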

How the data were processed

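RNA was sequenced from 5 sorted libraries. The authors deposited raw read counts per Ensembl gene, and the deposited table also gives gene length in bases, another unit that was not needed for the tests. Per the submitters' processing notes, the build was mm10 and the tools included featureCounts 1.5.0-p3 for counting, HISAT2 2.0.5 and CASAVA. Which annotation and strand setting were used is not given in the sources used here.

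Of 54532 genes, 15920 were kept by filterByExpr (minimum count 10, depot as the group). This filter asks for enough counts in at least 2 libraries, so genes confined to 1 library were not tested. Counts were TMM-scaled. The tests were edgeR 4.0.16 quasi-likelihood tests with robust dispersion on 4 groups by library name, with 1 residual degree of freedom, and Benjamini-Hochberg adjustment at 0.05. The SE is the size of the fitted log2 difference divided by the square root of F. Sizes use a pseudocount of 1 CPM. Effects of at least 1 count as present and under 0.5 as absent. DESeq2 1.42.0 and limma 3.58.1 were alternatives. Ratio intervals (95%, exact conditional) and floors of 3 counts cover counting error only. The method was also run on simulated counts with the same dispersion in every library. That run cannot show whether the lone libraries vary like the VAT CD142 pair.

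The members, lists and markers (F3, Mgp, Bmp6, Aldh1a3, Itgb7) were chosen with earlier results of these data known. The naming rule takes up to 6 passing protein-coding genes per class by size, or the next by size where under 3 passed, and list genes. Beyond the rule, other passing genes were named after their number was seen. Some genes counted in the totals are not reported here.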

Additional observations from a re-analysis of the deposited data

Results flagged for a closer look

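The test of the difference between depots flags each passing gene. The values here are differences in log2(CPM + 1), SAT effect minus VAT effect, with 1 library per side in SAT.

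Positive differences were 6.55 for Aldh1a3, 6.08 for Itgb7, 4.44 for Kcnn3, 3.87 for Sbsn, 1.91 for Bmp6 and 1.85 for Bmp7. Among reversed genes they were -8.11 for Krt8, -7.27 for Krt18, -6.63 for Ano1, -6.43 for Krt7, -5.25 for Aqp5, -5.16 for Dsp, -5.15 for Gfra2, -4.49 for Dkk3, -4.49 for Fgf1 and -4.27 for Clu. Among genes lower in both depots they were -5.23 for Mgp, -5.01 for F3, -4.12 for Clec11a, -3.81 for Fbln7, -3.79 for Mfap4 and -2.97 for Fmod.

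Among genes lower in SAT only they were -5.10 for Prlr, -4.73 for Acp5, -4.71 for Arhgdib, -4.11 for Aldh1a2, -3.75 for Susd2, -3.60 for Mest, -3.55 for Gli1, -3.52 for Ccbe1 and -2.19 for Kcnk2. Between the cut-offs they were -4.34 for Cdh11, -3.11 for Lrrn2 and -3.01 for Plekha6, and in genes under 10 CPM -3.58 for Igfbp2, -3.42 for Faim2 and -3.40 for Fam84a.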

How the results depend on the processing

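Depth limits the genes at 0 to 3 counts in a SAT library (5 at 0 and 8 at 1 to 3 of the 40), and 1 residual degree of freedom limits every test; the cause of each change below was not tested. With DESeq2 size factors the same 40 genes passed. Upper-quartile scaling gave 136 genes (25 positive, 111 negative), 410 within VAT, 26 in SAT only, 7 in VAT only and 21 reversed. No filter gave 181 (38 and 143), 1130 within SAT, 491 within VAT, and 33, 11 and 26 in those classes. A filter of 5 CPM gave 59, 15 of them positive and 1 in VAT only; Igfbp2 and Faim2 no longer passed. DESeq2 gave 85 (25 and 60), with 19, 4 and 17 in those classes. Limma-voom gave 10 (1 and 9), with 1 in SAT only and 6 reversed. Without mitochondrially encoded genes, 2 passed in VAT only. A pseudocount of 5 CPM left 5 passing reversed genes, and 10 by size alone, and lowered the Bmp6 difference to 0.0572. An effect threshold of 1.5 left 202, 51 and 11 genes by size alone in SAT only, VAT only and reversed. A minimum of 30 CPM left 5 passing reversed genes, and by size alone 59 in VAT only and 19 reversed.

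No library in SAT could be left out, since each is alone in its group. Leaving out 1 VAT CD142 library left no residual degrees of freedom and gave values only: 313 to 1137 genes in SAT only by size. The replicate block by library number also left none, and gave 375 in SAT only by size. All 40 genes kept their sign and a size of at least 1 under the block and without either library, which the choice of genes partly fixes. The block is estimated from the VAT CD142 pair alone. Its difference is therefore the one against VAT CD142 library 1, and it is no separate check of the SAT libraries. The labels tie the numbers to no shared animal, batch or day. Number and gate coincide in SAT, and the mitochondrial share follows the number. Across genes, which are not replicates, log2 levels of the SAT CD142 library correlated (Pearson's r) at 0.956 with VAT CD142 library 1 and at 0.926 with library 2.

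By title, 1053 genes passed (619 positive, 434 negative), with 49 in SAT only, 12 in VAT only and 634 reversed, or 810 reversed by size. Of the 40, 5 kept their sign (Clu, Fgf1, Gfra2, Dsp, Igfbp2). Among those that turned positive were Mgp at 9.16, F3 at 8.21, Clec11a at 7.46, Fbln7 at 7.30, Mfap4 at 6.10, Fmod at 5.02, Arhgdib at 5.00, Acp5 at 4.83, Plekha6 at 4.74, Gli1 at 4.55, Prlr at 4.37, Aldh1a2 at 4.22, Ccbe1 at 4.04, Mest at 4.03, Krt18 at 3.75, Susd2 at 3.45, Cdh11 at 2.93, Krt8 at 2.85, Faim2 at 2.72, Dkk3 at 2.48, Kcnk2 at 2.46, Aqp5 at 2.17, Lrrn2 at 1.47, Fam84a at 1.18, Ano1 at 0.97 and Krt7 at 0.88. Those that turned negative were Bmp7 at -11.37, Sbsn at -9.16, Bmp6 at -8.53, Itgb7 at -7.45, Aldh1a3 at -5.00 and Kcnn3 at -3.95. Among genes that did not pass by library name, Dpp4 was at -12.99 and Calcrl at -4.23.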
